A study of Mus musculus with 24 samples.

Results

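Regions of open chromatin that lay away from the ends of protein-coding genes, were open in every ATAC-seq list of the study and carried H3K27ac in both cartilages were examined. Peaks of the 8 single-library ATAC-seq lists were merged on the autosomes and X into 157305 regions. A region was a member when it held a peak in all 8 lists, lay over 1 kb from every protein-coding gene start and end in mm10, and overlapped the authors' combined H3K27ac peaks of both tissues by at least 1 bp. 3981 regions met this rule, out of 15788 that were open in every list and 5491 of those that were distal. The lists chosen from are the same ones that give the openness values, so the presence of a peak in each library is the rule and not a finding.

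All libraries came from wild-type (wt) C57BL/6 mouse embryos. Meckel's cartilage (MC), the paired rod around which the lower jaw forms, was dissected at E14.5 (3 ATAC-seq and 3 H3K27ac CUT&Tag libraries, labelled as chondrocytes). Cartilage of the E14.5 forelimb (FL), cleared of connective tissue and digested in the same way, gave the same numbers of libraries. The mandible at E12.5 gave 2 ATAC-seq libraries and no H3K27ac library, and their titles and description text name different stages and assays (the titles were followed). No mutant or treatment was used, and the labels do not say whether replicates were separate embryos or pools, so p-values measure only the spread between these libraries.

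ATAC-seq marks chromatin that a transposase can enter, and CUT&Tag uses an antibody to bring the transposase to a histone mark. Acetylation of histone H3 at lysine 27 (H3K27ac) is found at active promoters and enhancers. Enhancers are distal sequences bound by transcription factors that raise the transcription of a gene, often from within an intron or from far outside it. Many enhancers are used in a single cell type, and open distal chromatin that is shared between tissues also includes alternative gene starts, starts of non-coding RNAs and binding sites of the architectural protein CTCF.

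Some members coincided with annotated starts of transcription, and sequences before such starts are shown first. 987 members (24.79%) held an annotated RefSeq start in spite of lying over 1 kb from the outer ends of every protein-coding gene. 698 held an internal start of a protein-coding gene, 366 held the start of a long non-coding RNA (lncRNA), and 77 held both kinds. The following 200 bases run up to an annotated start that lies in a member, 5′ to 3′ from RefSeq on GRCm38.p6, with CG dinucleotides in capitals. The first 5 belong to genes of the cartilage, hypertrophy, signalling and blood lists, and the last pair to lncRNAs of imprinted loci. They show how widely CG content differed among starts that met the same rule.
Col9a1, chr1:24195003-24195202, plus strand: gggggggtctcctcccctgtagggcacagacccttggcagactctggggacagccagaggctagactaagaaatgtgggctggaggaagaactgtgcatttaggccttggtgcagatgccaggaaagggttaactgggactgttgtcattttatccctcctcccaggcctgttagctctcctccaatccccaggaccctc
Sox6, chr7:116031048-116031247, minus strand: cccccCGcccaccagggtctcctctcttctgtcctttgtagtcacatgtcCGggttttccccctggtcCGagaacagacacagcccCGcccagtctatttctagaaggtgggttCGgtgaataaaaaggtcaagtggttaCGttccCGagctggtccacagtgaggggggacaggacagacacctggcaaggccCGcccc
Pth1r, chr9:110742611-110742810, minus strand: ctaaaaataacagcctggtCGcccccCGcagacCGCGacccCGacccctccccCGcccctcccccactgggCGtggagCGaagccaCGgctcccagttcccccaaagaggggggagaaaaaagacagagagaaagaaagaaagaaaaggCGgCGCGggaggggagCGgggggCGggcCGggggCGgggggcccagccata
Axin2, chr11:108920149-108920348, plus strand: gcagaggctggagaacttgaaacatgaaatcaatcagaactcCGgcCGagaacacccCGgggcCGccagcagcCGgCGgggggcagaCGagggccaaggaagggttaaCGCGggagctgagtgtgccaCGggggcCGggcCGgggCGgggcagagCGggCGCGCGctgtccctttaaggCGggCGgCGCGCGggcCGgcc
Runx1, chr16:92697330-92697529, minus strand: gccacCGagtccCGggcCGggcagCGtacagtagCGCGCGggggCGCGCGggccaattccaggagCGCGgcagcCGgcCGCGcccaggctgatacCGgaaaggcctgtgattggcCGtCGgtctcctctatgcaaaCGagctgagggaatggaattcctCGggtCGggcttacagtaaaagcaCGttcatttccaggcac
Kcnq1ot1, chr7:143296548-143296747, minus strand: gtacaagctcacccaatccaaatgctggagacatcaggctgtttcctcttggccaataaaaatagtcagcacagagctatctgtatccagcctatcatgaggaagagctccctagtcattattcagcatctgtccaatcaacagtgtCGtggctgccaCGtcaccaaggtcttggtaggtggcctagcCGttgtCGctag
Airn, chr17:12741111-12741310, plus strand: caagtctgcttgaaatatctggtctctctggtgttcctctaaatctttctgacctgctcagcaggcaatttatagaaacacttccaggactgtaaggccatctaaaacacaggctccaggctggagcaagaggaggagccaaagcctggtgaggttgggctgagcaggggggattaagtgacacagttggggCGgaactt

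The Col9a1 sequence, before the internal start of a chain of type IX collagen, held 0 CG dinucleotides, and that of Airn held 1. The Sox6 sequence, before a start of a transcription factor that works with Sox9 in chondrocytes, held 8. Pth1r encodes the receptor for parathyroid hormone-related protein, which holds back chondrocyte hypertrophy, and its sequence held 16. Axin2, a negative feedback regulator of Wnt signalling, had 23, and Runx1, a transcription factor of blood formation, had 22. Kcnq1ot1 and Airn are antisense lncRNAs that silence neighbouring genes on the paternal chromosome in mice, and the Kcnq1ot1 sequence held 4 CG dinucleotides. The GGGCGG motif was present on either strand in the 300-base windows (250 bases before to 50 after the start) of Sox6, Pth1r, Axin2 and Airn and not in those of Col9a1, Runx1 and Kcnq1ot1.

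Over all 1301 starts in members, the median GC content of these windows was 60.33% and the median CpG observed-over-expected ratio was 0.6629. 54.04% of the windows were CpG-rich (GC of at least 50% and a ratio of at least 0.6), against 47.24% of 163 windows in always-open distal regions without an H3K27ac peak in either combined list (called unacetylated), 75.43% of windows in always-open regions near gene ends and 33.67% of all 32585 RefSeq windows. Starts in members were therefore intermediate in CpG content. GGGCGG, the motif of SP1-type factors, was in 56.8% of the windows in members and in 35.87% of all windows, and CCAAT in 31.67% and 37.57%. The runt motif TGTGGT was in 14.22% and 16.63%, the SOX motif ACAATG in 8.071% and 12.24%, the AP-1 motif TGANTCA in 6.533% and 7.85%, TATAAA in 5.919% and 13.66%, and a CTCF core motif in 3.613% and 2.443%. All motifs were searched on both strands, and GGGCGG overlaps CG content by its letters. In the same order of motifs, windows in unacetylated regions had 52.76%, 42.33%, 10.43%, 7.362%, 6.748%, 8.589% and 2.454%. Windows near gene ends had 69.75%, 38.75%, 10.85%, 5.926%, 3.718%, 5.577% and 2.896%. Except for the motif at 42.33% and 38.75%, both classes differed from all windows in the same direction as members. For the CTCF core motif, though, windows in unacetylated regions (2.454%) were nearly level with all windows (2.443%). The other shared differences are thus not particular to members, and differences between classes were not tested. All these shares describe start windows only, since the sequence of members without a start was not analysed here.

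Members also held small RNA genes. 29 of 1005 annotated microRNA hairpins overlapped 27 members, or 2.949 hairpins per Mb of member sequence, against 3.874 in always-open distal regions without H3K27ac (4 hairpins), 3.986 near gene ends and 2.091 in regions not open in every list. MicroRNAs silence messenger RNAs that pair with their seed, bases 2 to 8 of the mature RNA. All 3 loci of the miR-199 family lay in members, each inside a dynamin gene. The mature sequences of these and of other well-known microRNAs whose hairpins lay wholly in members are given from RefSeq (GRCm38.p6) with the seed in capitals.
mmu-miR-199a-3p: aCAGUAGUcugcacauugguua
mmu-miR-199b-3p: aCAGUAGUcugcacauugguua
mmu-miR-199a-5p: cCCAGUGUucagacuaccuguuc
mmu-miR-148a-3p: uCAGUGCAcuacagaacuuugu
mmu-miR-26a-5p: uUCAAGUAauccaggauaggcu
mmu-let-7i-5p: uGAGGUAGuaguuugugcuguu
mmu-miR-675-5p: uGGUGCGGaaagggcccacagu

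The miR-199a-3p and miR-199b-3p sequences share the seed CAGUAGU, and the other sequences shown have seeds of their own. The member over Mir199a-2 (chr1:162215626-162218345) lies inside Dnm3 and also holds the start of Dnm3os, the antisense RNA from which this microRNA is processed. Peaks covered 2072, 2098 and 2239 bp of it in MC, 2191, 1748 and 1363 bp in FL, and 1351 and 1733 bp in E12.5 mandible. The member over Mir199b (chr2:32316592-32321285, inside Dnm1) was covered over 2456, 3871 and 4047 bp in MC, 3481, 3525 and 3455 bp in FL, and 4404 and 3310 bp in E12.5 mandible. The ranges of the cartilages overlapped at both loci, and so they did at Mir199a-1 in Dnm2 (chr9:21495960-21498018), with 1199, 1574 and 1436 bp in MC and 1064, 1011 and 1498 bp in FL. The member of Mir675 (chr7:142568352-142579351), the microRNA made from the imprinted lncRNA H19, was 11000 bp wide. It was covered over 7692, 7298 and 7936 bp in MC, 7324, 5045 and 6209 bp in FL, and 10685 and 4498 bp in E12.5 mandible. Here every MC value except 7298 bp exceeded all 3 FL values, so the groups overlapped.

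The lncRNA starts included several that are transcribed in most cell types. The member at the start of Mir22hg, the host of miR-22 (chr11:75459889-75463749), ranked at the 96.17th percentile of peaks or higher in every ATAC list by the authors' score. The members at Dleu2, Dancr and Snhg5 reached 93.2, 83.65 and 84.03 in their lowest lists, while that at Snhg7 had 0.178 in its lowest. At Kcnq1ot1 (chr7:143294995-143296995, inside Kcnq1) peaks covered 1681, 1601 and 882 bp in MC, 664, 1086 and 1674 bp in FL, and 1755 and 1051 bp in E12.5 mandible. At Airn (chr17:12740876-12741980, inside Igf2r) they covered 467, 690 and 1018 bp in MC, 685, 1011 and 813 bp in FL, and 443 and 740 bp in E12.5 mandible. Both imprinted starts were thus open at overlapping widths in jaw and limb. Peaks do not separate the parental chromosomes.

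Most members lay within genes, and few lay very far from a gene end. 2437 members (61.22%) had their midpoint inside a protein-coding gene, against 42.99% of the 742 always-open distal regions without H3K27ac and 46.09% of the 768 that were acetylated in 1 cartilage. The median distance of a member to the nearest gene end was 18030 bp. 2566 members (64.46%) lay over 10 kb away, against 70.08% of unacetylated regions, and 423 (10.63%) over 100 kb away, against 22.51%. The median width was 2050 bp (range 504 to 27928), and together the members spanned 9.835 Mb. Where the summits of the 8 lists fell within a member varied by a median of 403 bp, against 230 bp in unacetylated regions, which were narrower (median 1275 bp). In 45.54% of members each list held a single peak. At the 1 kb limit of the rule, the nearest members lay 1009 bp (by Gm5148), 1015 bp (Eprs), 1016 bp (Zfp521 and Tmem167b) and 1017 bp (Tmem88b) from a gene end, and the nearest regions kept out lay 986 bp (Prcd), 982 bp (Mfsd2b and Bhlhe41), 981 bp (Ccnd1) and 976 bp (Ccdc12) away.

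Few members lay on the X chromosome. X held 38 of them (0.9545%), against 4.043% of unacetylated always-open distal regions (30 of 742), 3.516% of those acetylated in 1 cartilage (27 of 768), 2.729% of always-open regions near gene ends and 1.247% of all merged regions. Of the combined H3K27ac peaks used by the rule, 1.251% in MC and 1.035% in FL were on X. The sex of the embryos is not given in the sources used here.

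Openness was ranked within each list by the authors' peak score, and a peak's rank in % of the list is called the score percentile. A region took the percentile of its best peak. Members held means of 1.20 to 1.31 peaks per list, against 1.03 to 1.09 in unacetylated regions, and this was not adjusted for. The median percentile of members was 78.3, 73.1 and 77.8 in the MC lists, 78.5, 83.5 and 74.6 in the FL lists, and 71.7 and 82.4 in the E12.5 mandible lists. In the same lists, unacetylated always-open distal regions had medians of 72.8, 61.0 and 68.2 in MC, 70.6, 76.7 and 68.9 in FL, and 51.2 and 81.4 in E12.5 mandible. Members were higher in 8 of 8 libraries, by 8.63 ± 5.81 percentile points on average (SD over libraries; exact sign-flip p = 0.007812, two-sided, the smallest that 8 libraries allow; Benjamini-Hochberg 0.007812 over 4 tests). The gap was widest in E12.5 replicate 1 and narrowest in E12.5 replicate 2. Peaks covered 384 ± 74.4 bp more of a member than of an unacetylated region (difference of medians, 8 of 8 libraries, same p). Members are also wider regions, and width was not adjusted for.

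Always-open regions near gene ends stood above members in every library. The difference of medians, members minus gene ends, was -9.93 ± 1.64 percentile points (below 0 in 8 of 8 libraries; exact sign-flip p = 0.007812, Benjamini-Hochberg 0.007812) and -198.75 ± 52.2 bp of cover (below 0 in 8 of 8, same p). Members were therefore between unacetylated distal regions and gene ends in both measures of these lists. All libraries share the regions compared, and they come from different tissues and stages. The p-values of these class comparisons therefore measure only whether the lists agree on these fixed regions. They do not measure the spread between regions, which were not treated as replicates.

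**Figure D1:**
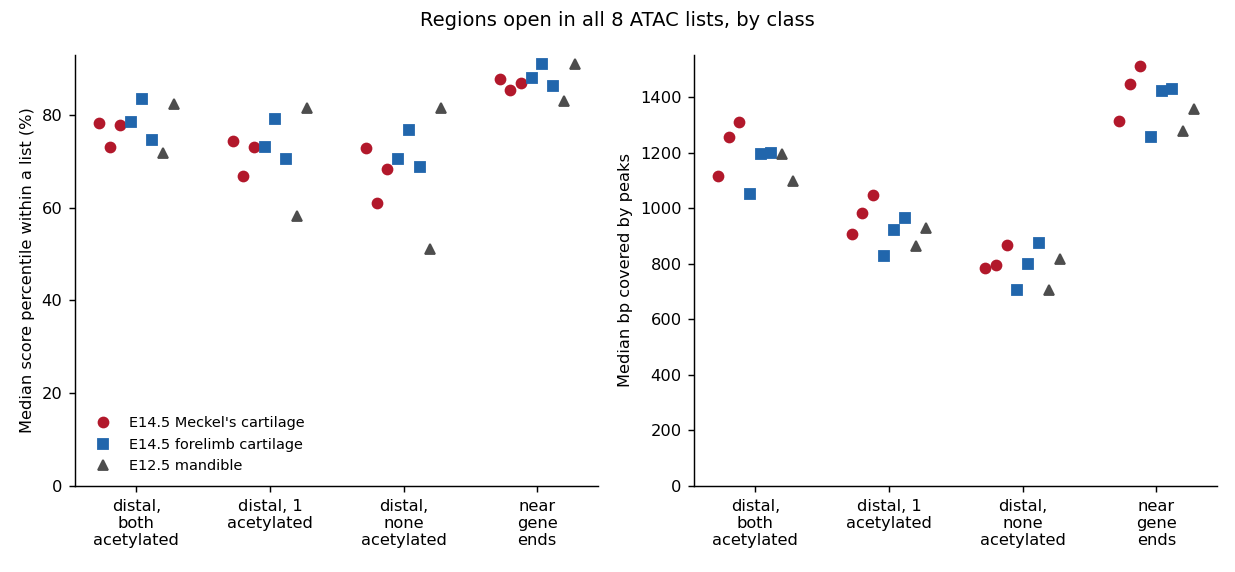
Median score percentile within each list (left, %) and median bp covered by peaks (right) for 4 classes of regions open in all 8 ATAC lists; each point is 1 library, coloured by tissue and stage. Distal regions acetylated in both cartilages lie above distal regions without H3K27ac in 8 of 8 libraries and below regions near gene ends in 8 of 8.

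Members differed in how high they ranked in their lowest list. 2052 members (51.54%) stayed above the 50th percentile in all 8 lists, and 217 (5.451%) above the 90th. The highest of them lay 104754 bp from Esp38 (chr17:39842694-39848837) and at Sfi1 (chr11:3183987-3200071), with lowest percentiles of 100 and 99.98. Their cover, 5876 to 6144 of 6144 bp and 14978 to 15962 of 16085 bp over the 8 libraries, filled nearly the whole region everywhere. RefSeq places the ribosomal RNA pseudogene Rn18s-rs5 and the pseudogene Fau-ps2 in these regions. Whether reads from other copies of these sequences add to their peaks was not tested.

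The next members by lowest percentile lay in Ptprs (chr17:56457748-56466241, 99.68), a receptor phosphatase; Cic (chr7:25277275-25285805, 99.58), a transcriptional repressor; and Sin3a (chr9:57074784-57077770, 99.31), a scaffold of histone deacetylase complexes. Zfp958, Cdc14a, Pfkfb3, Magi2 and Cpeb2 followed, with lowest percentiles of 99.26, 99.2, 99.11, 99.08 and 98.8. The Sin3a member, which also holds the start of a lncRNA, was covered over 2623, 2666 and 2987 bp in MC, 2393, 2621 and 2321 bp in FL, and 2697 and 2699 bp in E12.5 mandible. The MC values exceeded the FL values there by a narrow margin without overlap. In the Ptprs member, MC had 3356, 4890 and 6622 bp and FL had 2455, 2673 and 2592 bp, also without overlap, while E12.5 mandible had 8421 and 4208 bp.

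Cartilage genes were among those with members. 10 of 26 genes of a list of cartilage matrix genes and their regulators had 1 or more members (38.46%), against 12.29% of all 21627 protein-coding genes, with each member being assigned to the smallest gene that held its midpoint or else to the nearest gene within 1 Mb. The lengths of the genes' domains were not adjusted for in these shares. 7 of the 8 chondrocyte markers Sox9, Col2a1, Acan, Col9a1, Matn1, Hapln1, Snorc and Cnmd had an always-open region of any class, Matn1 being the exception, and 4 had a member. In Col2a1, the gene of the main cartilage collagen, the member (chr15:97991862-97993672, 11052 bp from the nearest gene end) was covered over 880, 1353 and 782 bp in MC, 989, 946 and 1168 bp in FL, and 1366 and 1334 bp in E12.5 mandible. The member outside Acan, the gene of the proteoglycan aggrecan (chr7:78989306-78991210), was covered over 440, 1298 and 1280 bp in MC, 680, 968 and 787 bp in FL, and 1226 and 1315 bp in E12.5 mandible. The E12.5 values of both were at the upper end of the cartilage values, and the cartilages overlapped.

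The internal Col9a1 start (chr1:24194747-24197128) was covered over 2164, 1559 and 2004 bp in MC, 2022, 1934 and 1717 bp in FL, and 1484 and 2113 bp in E12.5 mandible. Col9a1 has a short form that begins at an internal promoter. The region is 2382 bp wide, cover overlapped between the groups, and score percentiles were 75.31 or higher in every list. Wwp2, a ubiquitin ligase that is a target of Sox9, had a member in its gene (chr8:107543822-107545472) with 1079, 1572 and 1349 bp in MC, 1256, 1334 and 1234 bp in FL, and 638 and 897 bp in E12.5 mandible. E12.5 values were the lowest there, without overlap with either cartilage. The fitted log2 difference of MC over E12.5 was 1.23 (SE 0.43; limma adjusted p = 0.2064 among always-open regions), which did not pass the test.

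Sox5 and Sox6, which act with Sox9 on the matrix genes, had 2 and 3 members. The Sox6 member with the internal start (chr7:116030043-116035082) was 5040 bp wide and covered over 2654, 4222 and 3711 bp in MC, 3435, 3880 and 4346 bp in FL, and 3293 and 2921 bp in E12.5 mandible. The other Sox6 members lay 17852 and 253720 bp outside the gene, and both Sox5 members lay deep inside that gene, 246118 and 380044 bp from the nearest gene end. The widest of these Sox5 members (chr6:144208469-144210961) had 1653, 1215 and 1943 bp in MC, 2130, 1533 and 2036 bp in FL, and 1848 and 1832 bp in E12.5 mandible. Trps1, a repressor of the growth plate, had a member (chr15:50697356-50698996) with 968, 1149 and 1409 bp in MC and 902, 980 and 1147 bp in FL. None of the members of these genes passed the limma test between cartilages, and their log2 differences of MC over FL ran from -0.24 (Sox5) to 0.21 (Trps1).

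Sox9 itself, the master regulator of chondrocytes, had no member. Its own always-open region (chr11:112780850-112785660) lay at the gene and so belonged to the gene ends, with percentiles of 88.12 or higher. None of the 39 merged regions in the 1056 kb between Sox9 and Gm11677, the nearest protein-coding gene before it, was open in every list. Regions beyond that gene were not counted here. After Sox9, 2 of 75 regions in 457.1 kb were. One of these was a member (chr11:113220829-113222367), 22484 bp from Slc39a11, with 1148, 526 and 838 bp in MC, 664, 819 and 574 bp in FL, and 1444 and 355 bp in E12.5 mandible. The E12.5 libraries lay at both extremes of these values. Of the other fixed genes, Col11a1, Comp, Nkx3-2, Pthlh, Bmp2, Msx1, Dlx5, Tbx15, Meis1, Meis2, Prrx1 and Hapln1 had always-open regions but no member, and Ihh, Pitx1, Tbx5, Shox2 and Matn1 had none of either.

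Genes of hypertrophy and bone formation had members at 7 of 19 genes (36.84%). Among genes with 5 or more members, Pth1r had the densest, 5 in a domain of 38.6 kb (12.95 per 100 kb). A domain is the span of the gene with, on each side, the gap to the neighbouring gene up to its midpoint. Bases of nested genes were not taken out. Its widest member (chr9:110723256-110734221, 10966 bp) was covered over 4237, 2284 and 6845 bp in MC, 4567, 2847 and 2748 bp in FL, and 10771 and 2581 bp in E12.5 mandible. Runx2, which drives osteoblast formation and hypertrophy, had 3 members inside the gene. One of them (chr17:44737304-44739715) was covered over 1315, 769 and 1530 bp in MC and 1558, 1117 and 1345 bp in FL, but over 513 and 601 bp in E12.5 mandible. The E12.5 values lay below all 6 cartilage values, with a log2 difference of MC over E12.5 of 1.46 (SE 0.44), which did not pass the test (limma adjusted p = 0.156 among always-open regions). Runx3, a partner of Runx2 in hypertrophy, had a member 6559 bp wide (chr4:135144595-135151153) with 726, 693 and 1375 bp in MC and 1012, 1548 and 2098 bp in FL. E12.5 mandible had 6355 and 970 bp there, which lay on either side of most cartilage values. Mef2c had 3 members, Mef2d and Col1a2 had 2 each and Col1a1 had 1.

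**Figure D2:**
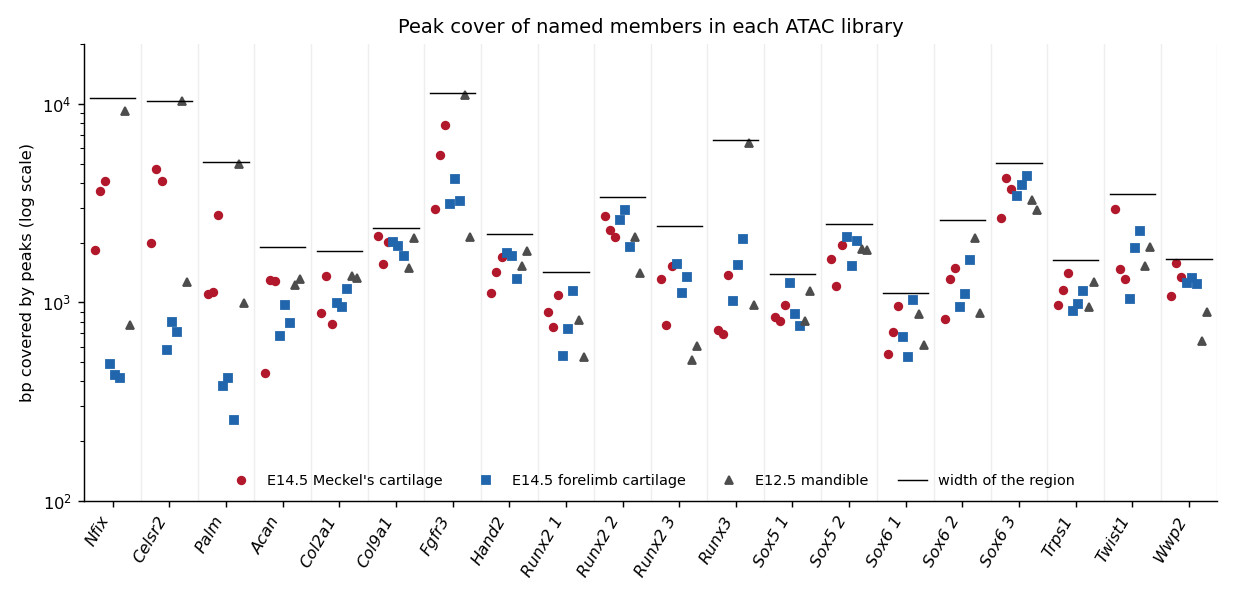
Base pairs covered by ATAC peaks (log scale) in each library for the 3 members called between cartilages in the fit of always-open regions (Nfix, Celsr2, Palm) and for all members assigned to the fixed genes, numbered by position where a gene has several; the black line is the width of the region. The 3 MC libraries lie above the 3 FL libraries at the first 3 members, and the groups overlap at most others.

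Genes of the BMP, FGF, Wnt and TGF-beta pathways had members at 23 of 40 genes (57.5%), beside 12.29% of all protein-coding genes. These pathways signal from secreted ligands through surface receptors to Smad, kinase or beta-catenin cascades, and several of their targets are feedback inhibitors. Among ligands, Bmp7 had 4 members, Fgf18 and Wnt11 had 3 each, Gdf6 and Tgfb2 had 2 each, and Bmp4 and Fgf9 had 1 each. Among receptors, Fgfr1 had 2 members, and Fgfr3, Tgfbr1, Tgfbr2, Ror2 and Fzd8 had 1 each. Among inhibitors, Smad7 had 6 members, Smad6 had 3, Axin2 and Spry2 had 2 each, and Spry1, Spry4 and the BMP antagonist Chrd had 1 each. Smad3, Lef1 and Tcf7l2, which carry the signals in the nucleus, had 1 each. Where any always-open region is taken as the base, 23 of 36 genes of the list (63.89%) had a member, against 2659 of 11648 genes in all (22.83%). On that base the hypertrophy list had 63.64% and the cartilage list 47.62%. Marker lists of blood and endothelium had 66.67% (of 3 genes) and 50% (of 4 genes). With 1 such gene each, the epithelial list had 100% and the neuron and Schwann cell list 0%. High shares were thus not particular to skeletal and signalling lists, and the difference between lists was not tested.

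The members of Smad7, an inhibitor of TGF-beta and BMP receptors that both pathways induce, lay on chromosome 18 within and around the gene. The widest (chr18:75371961-75380910) was covered over 3092, 3953 and 5243 bp in MC, 4871, 3704 and 3066 bp in FL, and 6347 and 3408 bp in E12.5 mandible. The farthest one, 23992 bp outside the gene (chr18:75341919-75344827), had 1612, 2029 and 1984 bp in MC, 1991, 2317 and 1870 bp in FL, and 2270 and 1323 bp in E12.5 mandible, and its lowest percentile was 86.09. Cover at both overlapped between the cartilages. The Fgfr3 member, 11352 bp wide (chr5:33691509-33702860), was covered over 2966, 5527 and 7837 bp in MC, 3144, 4163 and 3223 bp in FL, and 11132 and 2125 bp in E12.5 mandible. Fgfr3 restrains chondrocyte proliferation, and the E12.5 libraries lay at both extremes of the values of its member.

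Jaw and limb patterning genes were set beside the same 12.29% of all genes. 5 of 28 jaw and cranial neural crest genes (17.86%) had 1 member each, among them Twist1, Foxd1, Six2 and Prrx2. 4 of 25 limb patterning genes (16%) had members, among them Gli3 with 5, Lmx1b with 3 and Hand2 with 1. None of 39 Hox genes did, and 4 of the 39 had an always-open region of any class. 75% of the jaw genes and 72% of the limb genes had an always-open region of some class, and of those genes 23.81% and 22.22% had a member, close to the 22.83% of all genes with an always-open region. At Hand2, a transcription factor of both jaw and limb buds, the member (chr8:57327242-57329452) had 1112, 1421 and 1684 bp in MC, 1769, 1707 and 1307 bp in FL, and 1529 and 1822 bp in E12.5 mandible. The differences between lists were not tested, since the lists were written with results of these data known.

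Markers of other cell types were also represented. Endothelial genes with members were Cdh5 (3) and Erg (1) of 7, and blood genes were Runx1 (3) and Ptprc (1) of 7. Of 6 epithelial genes Epcam had 2, and 0 of 6 skeletal muscle genes and 0 of 6 neuron and Schwann cell genes had any. The share of genes with a member was 28.57% in the endothelial and blood lists and 16.67% in the epithelial list. Over all protein-coding genes it was 12.29%. All 3 Cdh5 members lay outside the gene, at distances of 72815 to 287018 bp, and the Ptprc member lay 163505 bp away. Assignment to the nearest gene is all that ties them to these markers. The same limit holds for distant members of the other lists, beside their members inside genes. Examples lay 568053 bp from Fzd8, 410518 bp from Gli3 and 62968 bp from Acan. The part of other cell types in the members was not tested. Of 12 general chromatin and cell growth genes, 11 had an always-open region and 1, Ywhaz, had members (3).

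**Figure D3:**
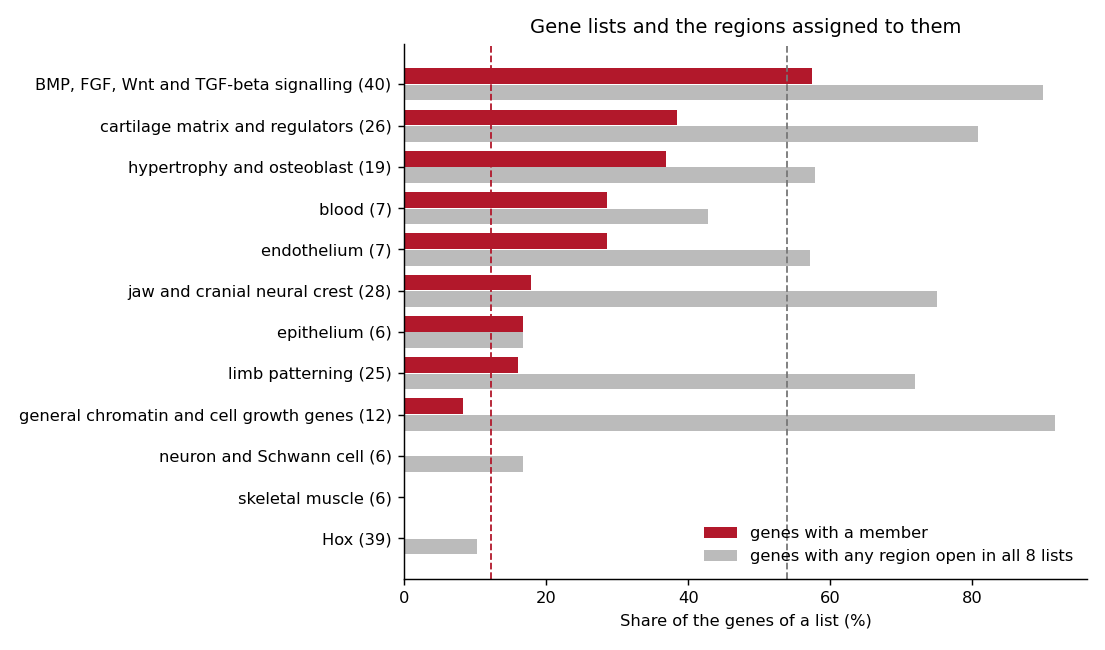
Share of the genes of each fixed list (number of genes in brackets) with at least 1 member (red) and with any region open in all 8 lists (grey), in %; dashed lines give the same shares of all 21627 protein-coding genes, 12.29% and 53.86%. Signalling genes reach 57.5% and 90%, and general chromatin and cell growth genes 8.333% and 91.67%.

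Members were gathered at some genes. 2659 genes had a member, 1900 of them exactly 1, 759 of them 2 or more, and 67 of them 5 or more. Gse1 had 11 members in 392 kb, Rgs3 and Zfp36l2 had 10 each, Nav2 and Tns1 had 9 each, and Nfatc1 and Nfia had 8 each, followed by 11 genes with 7. Zfp36l2 encodes a protein that destabilises messenger RNAs, and all of its 10 members lay outside the gene. Nfatc1 and Nfia are transcription factors, Rgs3 dampens G-protein signalling, and Tns1 links integrins to actin. By density among genes with 5 or more members, Pth1r was followed by Synpo with 8.805 members per 100 kb, Socs3 with 8.547, Bmf with 7.174 and Ahdc1 with 7.165. Counts grow with the length of a domain, and Nfia and Tenm4, at 8 and 7 members, had only 0.7585 and 0.3978 per 100 kb.

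The combined H3K27ac peaks over members were wide and strong within their lists. These peaks chose the members, so their values are a description. Members sat in peaks with a median percentile of 87.13 by total signal in the MC list and 85.74 in the FL list. Peaks that held a member had a median width of 11200 bp in MC and 13789 bp in FL, against 5343 bp and 7151 bp of the peaks in the same lists without one. 93.59% of members in MC and 94.35% in FL lay wholly inside the peak. 690 members (17.33%) in MC and 904 (22.71%) in FL lay in peaks of at least 40 kb. 364 MC peaks and 394 FL peaks held 2 or more members. In MC the peaks with the most members, 7 each, lay over Septin9 (chr11:117221919-117369415) and Synpo (chr18:60599805-60691650), and in FL the peak over Tns1 (chr1:73899748-74114510) held 8. These lists are the authors' pooled calls, so the tissues were not tested against each other.

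H3K27ac lists of single libraries held a peak in few members. The rule did not read these lists, but the combined lists it used come from the same tissues and assay, so members and unacetylated regions are set side by side here without a test. The share of members with a peak was 7.28%, 9.77% and 8.39% in the MC libraries and 9.62%, 7.56% and 8.39% in the FL libraries. The tissues did not differ beyond their spread, with shares of 8.48 ± 1.25% for MC and 8.52 ± 1.04% for FL (SD, n = 3 libraries of each tissue; exact permutation p = 1, two-sided; the smallest possible is 0.1). Unacetylated always-open distal regions had 4.49 ± 1.25% in MC and 5.26 ± 1.07% in FL, so members were 3.63 ± 1.38 points above them over the 6 libraries (mean difference ± SD). Counted as the share of bases under peaks, which takes out the greater width of members, the values were 1.57% and 1.53% in members and 1.41% and 1.55% in unacetylated regions (means of MC and of FL), with a mean difference of 0.073 points. The largest total signal of any peak in a single-library list was 3459, and the smallest in a combined list was 16925, so the kinds of list were not called on the same scale.

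The comparison between jaw and limb cartilage asked whether cover within shared regions still differed. The bp of each region under peaks were brought to a common total for each list and fitted as log2(bp + 50) with limma over the 82840 regions with a mean of at least 100 bp. 310 regions were called higher in MC than FL (0.374%) and 1752 lower (2.11%) at an adjusted p under 0.05. This fit called no member in either direction, and 30 members (0.754%) had an unadjusted p under 0.05, against 9.57% of all regions. It called 0 of the 15788 regions open in every list. In simulated data it missed every change planted among such regions, but it made 0 calls there in all, unlike in the real data. Its lack of calls is therefore not read as a result about the members. A fit to the always-open regions alone, an alternative to the first, called 7 regions higher in MC (0.0443%) and 0 lower (0%), and 3 of the 7 were members. In that fit 264 members (6.63%) had an unadjusted p under 0.05, against 4.08% of all always-open regions. In simulated data the fit to always-open regions recovered 28% of planted changes of log2 1.5 and 87% of those of log2 3. Of its 122 calls there, 7 were false. Most moderate changes would thus be missed by it.

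The called members were wide regions inside genes. In Nfix, a transcription factor of the nuclear factor I family (chr8:84730235-84740908), peaks covered 1830, 3625 and 4086 bp in MC and 490, 432 and 415 bp in FL, with 9217 and 774 bp in E12.5 mandible. All MC values lay above all FL values, and the E12.5 libraries lay far apart. The log2 difference of MC over FL was 2.65 (SE 0.45; limma adjusted p = 0.004246 in the fit of always-open regions, 0.298 in the fit of all regions; higher in 3 of 3 libraries). In Celsr2, a cadherin of planar cell polarity (chr3:108394661-108404947), peaks covered 1996, 4704 and 4074 bp in MC and 577, 797 and 707 bp in FL, with 10287 and 1263 bp in E12.5 mandible. The log2 difference was 2.23 (SE 0.43; limma adjusted p = 0.02572 and 0.3813 in the same order of fits). In Palm, a membrane-associated protein (chr10:79803314-79808408), peaks covered 1109, 1124 and 2765 bp in MC and 381, 416 and 256 bp in FL, with 4984 and 988 bp in E12.5 mandible (log2 2.01, SE 0.41; limma adjusted p = 0.03753 and 0.3827). At all 3 members each FL library had a single peak, while MC libraries had 1 to 5, and E12.5 replicate 1 covered nearly the whole region. The borders of these regions were set with that library included, also for the fit without it. Without that library the Nfix log2 difference of MC over FL was 2.64 (limma adjusted p = 0.03006 in the fit of all regions), while the Celsr2 and Palm members did not pass that fit.

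The smallest p for lower cover in MC were at Celf4 and Mpped2, which did not pass the test. The Celf4 member (chr18:25631695-25635493) had 1078, 798 and 908 bp in MC, 2939, 2696 and 2752 bp in FL, and 1161 and 866 bp in E12.5 mandible (log2 -1.54, SE 0.37; limma adjusted p = 0.1448 among always-open regions). The Mpped2 member (chr2:106854031-106858225) had 1022, 915 and 1529 bp in MC, 3740, 2875 and 3228 bp in FL, and 1532 and 1831 bp in E12.5 mandible (log2 -1.48, SE 0.39; limma adjusted p = 0.2437). At both, all FL values exceeded all values of MC and of E12.5 mandible. These members were chosen after their values were seen, by the smallest p.

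Members whose MC and FL libraries did not overlap numbered 388 with MC higher (9.75%) and 128 with MC lower (3.22%). Over all regions tested the shares were 3.97% and 5.1%, and over all always-open regions 8.25% and 2.58%. The members' shares were near those of always-open regions in general. Without scaling of the lists the counts were 392 and 164, and with scaling to the median they were 306 and 258, so the excess of higher over lower depended on the scaling. The median log2 difference of members was 0.0876, with 0.0346 in unacetylated regions and 0.0517 near gene ends.

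The comparison of E14.5 MC with E12.5 mandible asked how the same regions differed with stage. limma called 842 of all regions higher at E14.5 (1.02%) and 1307 lower (1.58%). It called no member, which for the reason given above is not read as a result about the members. In this fit 101 members (2.54%) had an unadjusted p under 0.05, against 5.94% of all regions. The fit to always-open regions alone called 0 regions (0%) in either direction, with 852 members (21.4%) at an unadjusted p under 0.05, against 17.9% of always-open regions. The smallest p among members was at Ulk4 (chr9:121000566-121002512), with 1721, 1388 and 1666 bp in MC and 433 and 318 bp in E12.5 mandible (log2 2.41, SE 0.46; limma adjusted p = 0.08056 among always-open regions). It was followed by a member by Nfkbia, the inhibitor of NF-kappaB (chr12:55460405-55463064), with 2135, 1299 and 2100 bp in MC and 630 and 490 bp in E12.5 mandible (log2 2.08, SE 0.42; same adjusted p). At both, the stages did not overlap, and the FL libraries ranged from 307 to 1504 bp at Ulk4 and from 1727 to 2136 bp at Nfkbia. These too were picked by p after their values were seen.

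With lists scaled to the same total, 1304 members had all MC values above both E12.5 values (32.8%) and 49 had them below (1.23%). The shares were 11.4% and 3.46% of all regions and 33.5% and 0.621% of always-open regions. Without scaling the counts of members were 601 and 262, and with scaling to the median they were 400 and 413. The direction rests on the scaling. The median log2 difference of members was 0.55 with lists scaled to the same total, 0.067 without scaling and -0.036 with scaling to the median. Over all regions tested the medians were 0, -0.33 and -0.44 in the same order. Those regions include ones without a peak in some lists, which the rule excludes, so this gap is no trait of members. Over all always-open regions the median was 0.566 with lists scaled to the same total, near that of members. The number of calls depended on the E12.5 libraries. E12.5 replicate 1 covered 85.6 Mb in 74706 peaks and replicate 2 covered 48.2 Mb in 70042. Leaving out either keeps 1 library in the E12.5 arm, which is then assumed to vary like the other groups. The shares of all regions that follow include regions not open in every list. Shares of always-open regions were not taken here, so a gap between members and all regions is not read as a trait of members. With replicate 2 left out, 765 members (19.2%) were called higher at E14.5, against 9.69% of all regions, and 3 lower, against 7.8%. With replicate 1 left out, 2 members (0.0502%) were called higher and 0 lower, against 1.32% and 2.4% of all regions. The 3 MC lists covered 43.9 to 46.6 Mb and the 3 FL lists 40.7 to 53 Mb.

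**Figure D4:**
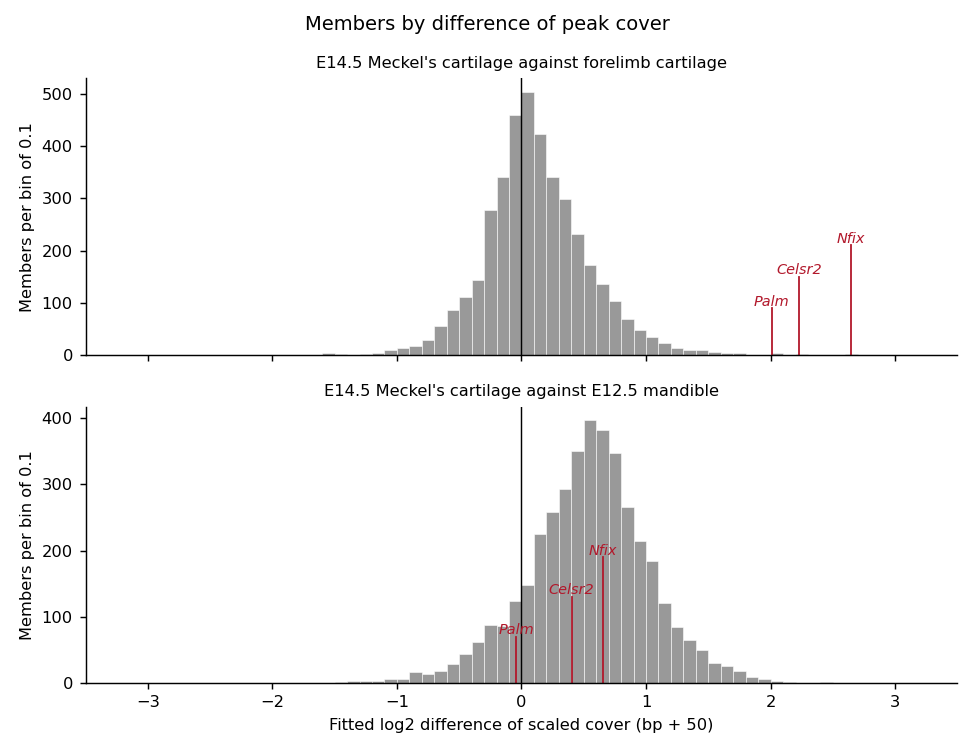
Number of members (vertical axis) per bin of 0.1 of the fitted log2 difference of scaled peak cover (horizontal axis) for E14.5 MC against FL (top) and against E12.5 mandible (bottom); red lines mark the 3 members called in the upper comparison among always-open regions. The upper distribution has a median of 0.0876 and the lower one of 0.55; the lower one shifts to -0.036 with scaling to the median.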

How the data were processed

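Single-library and combined peak lists of 8 ATAC-seq and 6 H3K27ac CUT&Tag libraries were used. Per the submitters' processing notes, Trim Galore, Bowtie2 and SAMtools were run against mm10, with Genrich for ATAC-seq; versions and thresholds are not given in the sources used here. The deposited ATAC lists hold the authors' peak score (none under 200), used to rank peaks within a list. The deposited H3K27ac lists hold total and highest signal per peak; SEACR is named for them in the submitters' processing notes. Read depth is unknown, so list length and cover stand in its place.

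The limma package (3.58.1, R 4.3.3) was applied to merged regions as described with the results, all 8 lists in 1 fit (also tested on simulated data). Other values used exact tests in Python 3.11.15 (numpy 2.4.6, pandas 2.3.3, scipy 1.17.1, matplotlib 3.10.9). RefSeq GRCm38.p6 gave genes, starts and sequences. Members and gene lists were chosen with earlier results of these data known. Named were the 10 best-ranked members, members past the limma threshold, those beside Sox9 and at the 1 kb limit, genes with most or densest members, 30 fixed genes, and listed genes with members; others are marked as chosen afterwards. Alternatives covered peak score, distance, overlap, gene assignment, scaling, pseudocount, filter, block and each library left out. Some listed genes are not reported here by name. Hi-C and 4C samples were not analysed here.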

Additional observations from a re-analysis of the deposited data

How the results depend on the processing

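Results not mentioned here kept their direction and side of the threshold. 2614 regions met the rule with peaks of a score of at least 300. The percentile of members among MC H3K27ac peaks was 84.7 by highest signal. The single-library H3K27ac difference between members and unacetylated regions was 1.33 points with peaks within 1 kb counted and 0.073 by share of bases, an alternative chosen after seeing the data; leaving out 1 library each gave 2.81 to 4.14 points.

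For MC against FL, regions called higher numbered 573 with only those libraries, 176 at a score of at least 300 and 7 among always-open regions; regions called lower numbered 1046 with a pseudocount of 200 bp and 0 among always-open regions. Members called higher numbered 3 and 1 in the fits of always-open regions and of those libraries alone. For MC against E12.5 mandible, 513 regions were called higher and 805 lower at a score of at least 300, and 0 either way with a pseudocount of 200 bp, no filter, always-open regions or those libraries alone.

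With each library left out, the number of members ran from 4033 to 5585 and genes with a member from 2683 to 3322. The score difference to unacetylated regions ran from 8.56 to 9.44 and to gene ends from -12.5 to -10.2. The cover difference ran from 324 to 386.1 bp and from -294 to -195 bp in the same order. The MC minus FL H3K27ac share ran from -0.69 to 0.56 points. H3K27ac percentiles ran from 84.9 to 87.6 in MC and from 83.7 to 86.4 in FL. For the calls that follow, regions were not merged again and the 3981 members were kept. Calls of MC against FL ran from 361 to 756 regions higher and from 1640 to 3897 lower, and from 0 to 7 members higher and from 0 to 2 lower (7 and 2 without E12.5 mandible replicate 2). Calls of MC against E12.5 mandible ran from 0 to 8173 regions higher and from 0 to 6580 lower, and from 0 to 765 members higher and from 0 to 3 lower. The region counts were 0 without MC replicate 2 or MC replicate 3, and 8173 and 6580 without E12.5 mandible replicate 2. The Nfix member passed the test with the compared libraries alone and without either E12.5 library.

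Same-numbered MC and FL libraries correlated at 0.0461, 0.0427 and 0.0324 in their deviations from the group means. Differently numbered ones correlated at -0.0484 to 0.011. Correlations this weak cannot decide whether libraries of the same number were paired. With the replicate block, 0 regions were called in either comparison (0 members; limma unadjusted p under 0.05 for 6817 and 5195 regions). The planned motif search over member sequences was not run, since no genome sequence was used here. The lists give no read depth, so no interval for single values can be had.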
